A study of Mus musculus with 35 samples.

Results

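The cadherin switch and the transcription factors that regulate epithelial-mesenchymal transition (EMT) were described through 10 genes: *Cdh1*, *Epcam*, *Esrp1*, *Cdh2*, *Vim*, *Snai1*, *Snai2*, *Zeb1*, *Zeb2* and *Twist1*. They were chosen by symbol, and all 10 were found among the 54446 genes of the deposited table, each on 1 line. Of these, 10 passed the filter on low values in the embryo and 9 passed it in culture, where *Snai2* did not.

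After implantation the pluripotent epiblast is an epithelium. Its cells are held together by E-cadherin, the product of *Cdh1*, which binds the same molecule on neighbouring cells and is tied to the actin cytoskeleton through catenins. At gastrulation, cells of the primitive streak undergo EMT. They lose apical contacts, leave the epithelium, lower E-cadherin and raise N-cadherin, the product of *Cdh2*, a change known as the cadherin switch. *Epcam* encodes an epithelial adhesion molecule and *Esrp1* a splicing regulator that maintains epithelial isoforms. *Vim* encodes vimentin, the intermediate filament protein of mesenchymal cells. *Snai1*, *Snai2*, *Zeb1* and *Zeb2* encode zinc-finger repressors that bind E-box sequences, *Cdh1* being their classic target, and *Twist1* encodes a basic helix-loop-helix factor. *Snai1* is known to be needed for the loss of E-cadherin when mesoderm forms in the mouse.

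Bulk RNA sequencing of 27 libraries was used, out of 35 samples in the series. The 15 *in vivo* libraries held 3 for each of 5 stages of embryos described as wild-type, untreated CD-1 and labelled male/female: the inner cell mass (ICM) at E3.5 and the epiblast at 4 later stages, a day apart, up to E7.5. The methods name CD1 or Pdgfrα:H2B-GFP matings as the source of embryos, and each library pooled several embryos. The E3.5 ICM was cut off by laser and still holds primitive endoderm precursors. For E4.5 the methods name the Pdgfrα:H2B-GFP line, from which GFP-negative cells were picked by hand after immunosurgery. Stage and mouse line thus cannot be told apart in the steps to and from E4.5. From E5.5 on, visceral endoderm and extra-embryonic ectoderm were taken off, together with the allantois at E7.5. Removal of mesoderm is not described.

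The 12 *in vitro* libraries held 3 for each of 4 cultures described as wild-type. 3D epiblast stem cells (3D EpiSCs) grew in Matrigel with FGF2, Activin-A, the tankyrase inhibitor XAV939 and the BMP antagonist Noggin, and came from embryonic stem cells (ESC-derived) or from E5.5 epiblasts (embryo-derived). For derivation from embryos the methods name LifeAct-GFP and wild-type CD1 embryos, without saying which gave the sequenced libraries. The labels give 2D EpiSCs as ESCs converted with FGF2 and Activin-A, and epiblast-like cells (EpiLCs) as ESCs kept for 48 h in FGF2 and Activin-A. The methods also describe 2D EpiSCs taken from E5.5 embryos, so the origin of the 2D libraries rests on the labels alone. Dimension and medium changed together between 3D and 2D EpiSCs. By the labels, embryo-derived 3D EpiSCs also differed from 2D EpiSCs and from EpiLCs in cell origin, which cannot be told apart from the rest there. Embryo libraries came from total RNA and culture libraries from poly-A RNA, so levels in the embryo and in culture are given side by side and were not tested against each other. Levels are given in TPM, a share of all transcripts of a library that accounts for gene length.

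Per library, 20324 to 26751 genes were above 0 *in vivo* and 22215 to 24438 *in vitro*. TPM values keep no record of depth. The summed TPM of 6 epiblast markers was 488 to 1107 from E3.5 to E6.5, 355 to 380 at E7.5 and 1915 to 2774 in culture. Markers of other cell types were present in the embryo libraries. The sum of 10 markers of primitive and visceral endoderm was 643 to 667 TPM at E3.5, 314 to 355 at E4.5, 869 to 930 at E5.5, 1355 to 1368 at E6.5 and 1337 to 1372 at E7.5, against 1.91 to 68.6 in culture. *Ttr*, which marks visceral endoderm, was listed at 0 at E3.5 and had medians of 85.0 TPM at E5.5 and 263 TPM at E7.5. The sum of 7 trophectoderm markers was 547 to 582.5 TPM at E3.5, 493 to 502 at E4.5, and 22.6 to 98.2 from E5.5 to E7.5. At E7.5 *Cdx2* alone was at 54.3 to 59.0 TPM. *Hba-x*, *Hbb-bh1* and *Hbb-y* of embryonic blood were listed at 0 in every library.

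**Figure D1:**
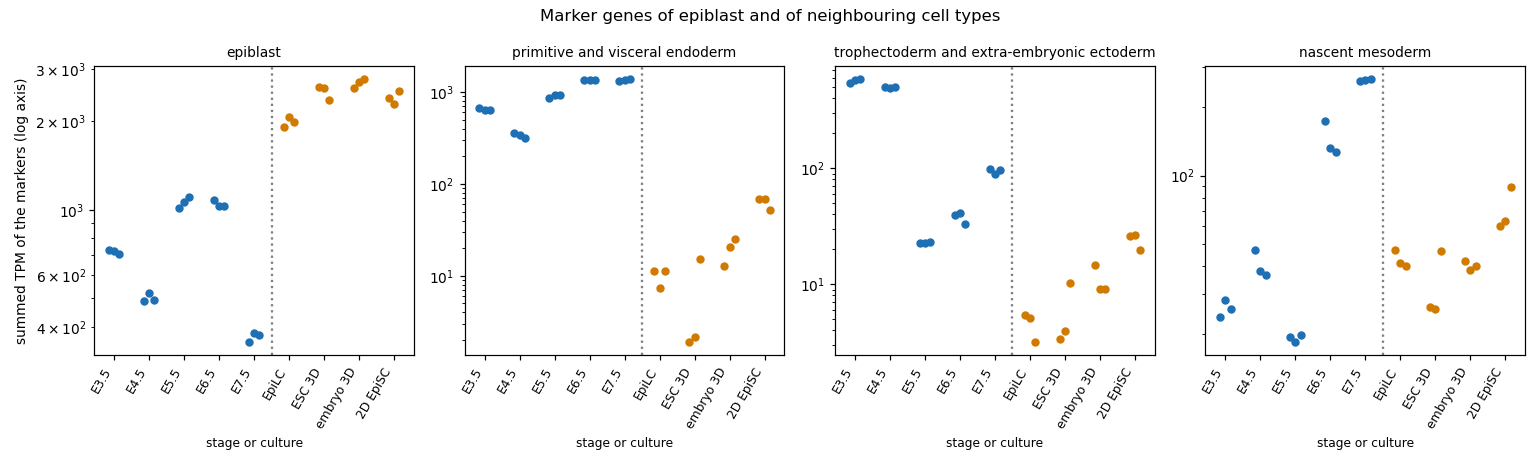
Summed TPM (vertical log axis) of marker genes of 4 cell types in each of the 27 libraries, by stage (blue, left of the dotted line) or culture (orange); each point is 1 library. The embryo libraries hold endoderm markers at every stage, and nascent mesoderm markers reach 262 to 265 TPM at E7.5.

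Differences were tested two-sided with limma on log2(TPM + 1) over all autosomal protein-coding genes that passed the filter, 11880 in the embryo and 11541 in culture, in separate fits. To be called, a gene had to pass 0.05 after Benjamini-Hochberg adjustment over all genes and to differ by more than 1 on the log2 scale. All adjusted p-values here are limma's, and fold changes are on the log2(TPM + 1) scale, which understates the change of low genes. The methods describe embryos pooled for each embryo replicate, so p-values there measure the spread between pools. Nothing states that culture replicates were separate cultures, so p-values there measure the spread between these samples, which may be technical. In bulk RNA, fewer cells of a type and less RNA per cell cannot be told apart.

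E-boxes of the kind bound by Snail and Zeb factors, CAGGTG or its reverse complement CACCTG, were searched in RefSeq promoter windows of GRCm38.p6, from 250 bases before to 50 bases after the start of transcription. Of the 10 genes, 5 had a window: *Epcam*, *Vim*, *Snai1*, *Zeb2* and *Twist1*. The E-box was present in 20.2% of all 32851 windows, and 2.88% held at least 2. *Epcam* held 2, starting at positions -187 and -19 relative to the start, *Snai1* held 1, starting at position -126, and the windows of *Vim*, *Zeb2* and *Twist1* held none. The stretches before the start of both genes are shown because they place these E-boxes beside an epithelial gene and beside a repressor gene of the set. Capitals mark the E-boxes, and both genes lie on the plus strand, at chr17:87635729-87635978 for *Epcam* and chr2:167537945-167538194 for *Snai1*.
Epcam: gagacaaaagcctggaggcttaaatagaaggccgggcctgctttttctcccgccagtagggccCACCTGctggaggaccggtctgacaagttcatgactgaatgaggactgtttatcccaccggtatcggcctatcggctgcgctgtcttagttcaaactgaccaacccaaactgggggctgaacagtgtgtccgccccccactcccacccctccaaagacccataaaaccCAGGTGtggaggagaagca
Snai1: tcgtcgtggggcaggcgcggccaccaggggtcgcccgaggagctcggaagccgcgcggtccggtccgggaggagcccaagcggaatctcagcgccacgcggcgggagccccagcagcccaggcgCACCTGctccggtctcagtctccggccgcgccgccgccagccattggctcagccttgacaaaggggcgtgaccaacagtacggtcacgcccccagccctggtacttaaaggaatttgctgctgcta
A match describes the letters of the window and not binding.

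In the embryo, *Cdh2* was called higher first, at E5.5, then *Snai1* and *Zeb2* at E6.5, and then *Snai2*, *Zeb1*, *Twist1*, *Vim* and again *Zeb2* at E7.5. This is an order of calls. Below the fold of a call, *Vim* (0.91 on the log2 scale) and *Twist1* (0.87) stood higher at E5.5 than at E4.5 without overlap. *Twist1* did so again at E6.5 (0.91, adjusted p = 0.0705). *Cdh1*, *Epcam* and *Esrp1* passed the call in no step between neighbouring stages. *Cdh1* at E7.5 still stood at 51.7% of its mean level at E3.5 and *Epcam* at 28.0%, whereas *Esrp1* stood at 110%. The summed trophectoderm markers were at 547 to 582.5 TPM at E3.5 and at 88.6 to 98.2 at E7.5. At E7.5 *Cdx2* alone was at 54.3 to 59.0 TPM, while *Elf5* was at most 0.579 TPM. From E6.5 to E7.5, 2 of 6 tested trophectoderm markers were called higher and 1 lower. The summed markers of primitive and visceral endoderm were at 643 to 667 TPM at E3.5 and at 1337 to 1372 TPM at E7.5. The part of these cell types in the levels of the 3 epithelial genes was not tested at any stage. *Cdh1* remained the most abundant adhesion gene of the set at E7.5, with 164 TPM against 33.8 TPM for *Cdh2*.

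**Figure D2:**
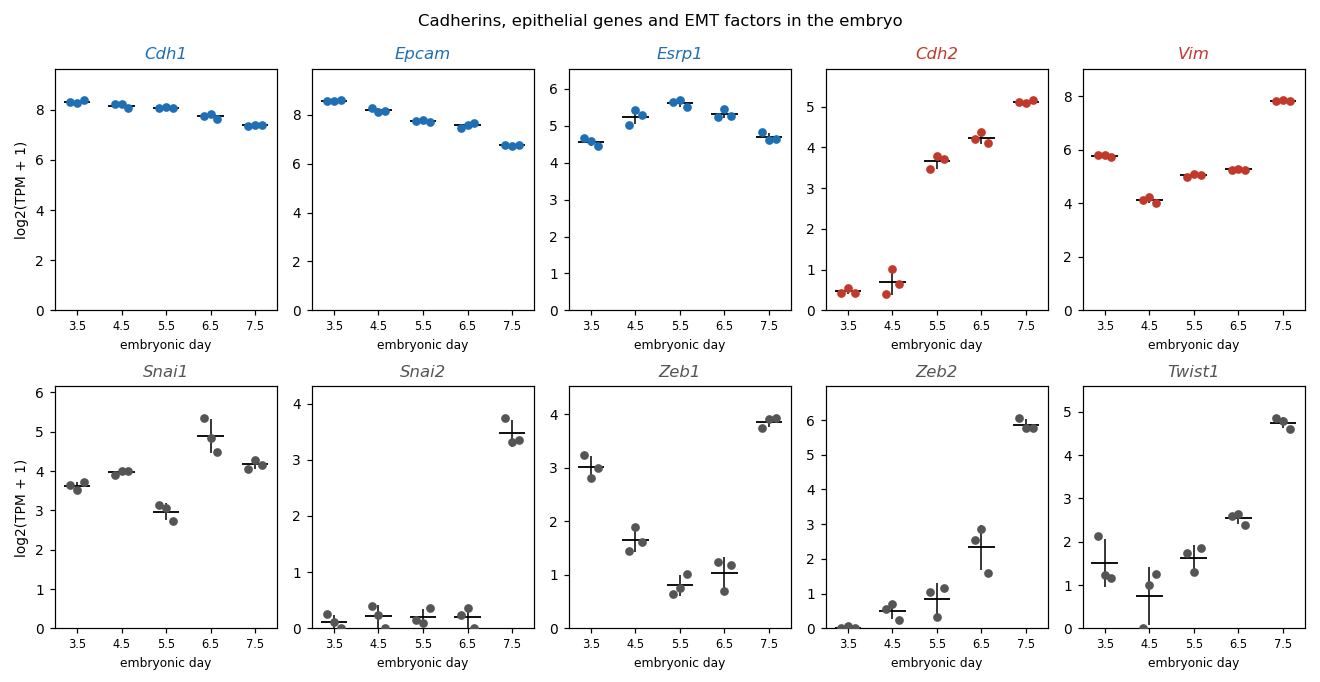
Level of each of the 10 genes, as log2(TPM + 1), by embryonic day; points are the 3 libraries of a stage, horizontal lines the mean and vertical lines ± 1 SD. Epithelial genes are in blue, mesenchymal genes in red and factors in grey. The widest rise of *Cdh2* is at E5.5, and those of *Snai2*, *Zeb1*, *Zeb2*, *Twist1* and *Vim* are at E7.5.

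*Cdh1* (chr8:106603351-106670246, plus strand, mm10) was at 316, 306 and 331 TPM at E3.5, at 296, 294 and 267 at E4.5, and at 265, 273 and 267 at E5.5. It was at 215, 228 and 199 TPM at E6.5 and at 162, 166 and 165 at E7.5. The E4.5 and E5.5 libraries overlapped, and every other pair of neighbouring stages stood apart, each later stage lower. The differences were small: the log2 fold change was -0.33 (SE 0.08, adjusted p = 0.0158) from E5.5 to E6.5 and -0.38 (SE 0.08, adjusted p = 0.00106) from E6.5 to E7.5.

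*Epcam* (chr17:87635979-87651106, plus strand) was at 374, 380 and 385 TPM at E3.5, at 312, 277 and 285 at E4.5, and at 214, 218 and 207 at E5.5. It was at 174, 188 and 202 TPM at E6.5 and at 106, 105 and 107 at E7.5. Each stage stood below the one before it without overlap. The step to E7.5 was the widest, at -0.82 on the log2 scale (SE 0.08, adjusted p = 1.83e-06).

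*Esrp1* (chr4:11331933-11386783, minus strand) had another course. Its mean was 22.7 ± 1.70 TPM at E3.5, 37.2 ± 5.30 at E4.5, 47.9 ± 3.22 at E5.5, 38.9 ± 3.44 at E6.5 and 24.9 ± 2.07 at E7.5 (SD, n = 3 each). The E5.5 libraries were above those of all other stages, and the E3.5 and E7.5 libraries overlapped.

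*Cdh2* (chr18:16588877-16809246, minus strand) was near 0 before implantation, at 0.337, 0.477 and 0.353 TPM at E3.5 and at 0.314, 1.02 and 0.570 at E4.5. After implantation it was at 9.99, 12.8 and 12.2 TPM at E5.5, at 17.4, 19.7 and 16.2 at E6.5, and at 33.4, 33.2 and 34.7 at E7.5. The first 2 stages overlapped, and from there on each stage stood above the one before. *Cdh2* rose by 2.97 on the log2 scale at E5.5 (SE 0.14, adjusted p = 5.34e-10), a 7.82-fold change in TPM + 1. It was above 2 TPM only from E5.5 on, and in a fit without the filter its adjusted p at this step was 5.69e-09. The later steps, 0.57 (SE 0.14, adjusted p = 0.0194) and 0.89 (SE 0.14, adjusted p = 0.000144), did not reach the fold required for a call. The summed endoderm markers also stood higher at E5.5 (869 to 930 TPM) than at E4.5 (314 to 355 TPM), and their part in the *Cdh2* level was not tested. In 2D EpiSCs, the culture with the highest *Cdh2* (up to 41.2 TPM), the same 10 markers summed to 52.1 to 68.6 TPM. There *Ttr* had a median of 0, while *Sox17*, *Gata6* and *Gata4* had medians of 24.7, 23.6 and 10.3 TPM.

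*Vim* (chr2:13573927-13582826, plus strand) was at 54.5, 55.2 and 51.6 TPM at E3.5 and at 16.3, 18.0 and 15.2 at E4.5. It was at 30.6, 33.0 and 32.1 TPM at E5.5 and at 37.2, 37.8 and 37.4 at E6.5. At E7.5 it was at 224, 231 and 227 TPM. No 2 stages overlapped. *Vim* fell by 1.65 on the log2 scale at E4.5 (SE 0.07, adjusted p = 6.09e-10) and rose by 2.57 at E7.5 (SE 0.07, adjusted p = 1.27e-11). Its rise at E5.5, 0.91 (SE 0.07, adjusted p = 1.61e-07), was below the fold of a call.

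*Snai1* (chr2:167538195-167542814, plus strand) was present at every stage. It was at 11.4, 10.5 and 12.1 TPM at E3.5, at 13.97, 15.1 and 15.05 at E4.5, and at 7.72, 7.27 and 5.65 at E5.5. It then was at 39.7, 27.4 and 21.3 TPM at E6.5 and at 15.7, 18.5 and 16.9 at E7.5. The E6.5 libraries were the highest and the most widely spread, with no overlap with any other stage. The rise at E6.5 was 1.92 on the log2 scale (SE 0.17, adjusted p = 1.52e-05). The fall at E5.5 lay at the limit of a call, at -1.005 (SE 0.17, adjusted p = 0.000195), and it was not called without the third E5.5 library (-0.89) or without the second or the third E4.5 library (-0.99 each).

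*Zeb2* (chr2:44983632-45117395, minus strand) was listed at 0 in 2 E3.5 libraries and at 0.0479 TPM in the other. It was at 0.474, 0.619 and 0.178 TPM at E4.5, at 1.06, 0.267 and 1.25 at E5.5, and at 4.89, 6.21 and 2.03 at E6.5. At E7.5 it was at 65.7, 53.2 and 53.8 TPM, the highest of the 5 factors. The E4.5 and E5.5 libraries overlapped, and E6.5 and E7.5 stood above all earlier ones. *Zeb2* rose by 1.48 at E6.5 (SE 0.28, adjusted p = 0.00464) and by 3.53 at E7.5 (SE 0.28, adjusted p = 2.86e-07), on the log2 scale. With only the E5.5 and E6.5 libraries in the fit the first of these was not called (adjusted p = 0.0762). *Zeb2* was above 2 TPM at E6.5 and E7.5 alone, the stages of these rises. In a fit without the filter the adjusted p-values were 0.00966 and 2.13e-06.

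*Zeb1* (chr18:5591860-5775467, plus strand) was at 8.42, 6.05 and 6.98 TPM at E3.5, at 1.74, 2.71 and 2.08 at E4.5, and at 0.556, 0.676 and 1.03 at E5.5. It was at 1.35, 0.628 and 1.26 TPM at E6.5 and at 12.4, 14.1 and 14.3 at E7.5. The ICM and the E7.5 epiblast thus held the high libraries, with the other 3 stages below both. *Zeb1* fell by 1.36 at E4.5 (SE 0.16, adjusted p = 1.05e-05) and rose by 2.83 at E7.5 (SE 0.16, adjusted p = 1.30e-08), on the log2 scale.

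*Snai2* (chr16:14705852-14709385, plus strand) was at or under 0.316 TPM in all 12 libraries from E3.5 to E6.5, and listed at 0 in 1 library each of E3.5, E4.5 and E6.5. At E7.5 it was at 12.4, 8.90 and 9.25 TPM, far from every earlier library, and the rise was 3.27 on the log2 scale (SE 0.14, adjusted p = 8.99e-10). *Snai2* was above 2 TPM at E7.5 alone, so it passed the filter only through the stage at which it was high, and in a fit without the filter its adjusted p was 9.68e-09. *Twist1* (chr12:33957671-33959829, plus strand) was at 3.42, 1.34 and 1.24 TPM at E3.5, at 0, 0.994 and 1.40 at E4.5, and at 2.34, 1.45 and 2.60 at E5.5. It was at 5.03, 5.18 and 4.25 TPM at E6.5 and at 27.9, 26.5 and 23.4 at E7.5. The E3.5 libraries overlapped those of E4.5 and E5.5, E5.5 stood above E4.5, E6.5 above all 3 and E7.5 above E6.5. The step from E4.5 to E5.5, 0.87 on the log2 scale (SE 0.30, adjusted p = 0.0225), was below the fold of a call, which it passed in 4 of 13 alternatives, and that from E3.5 to E4.5 was -0.76 (SE 0.30, adjusted p = 0.0478). Its rise at E7.5 was 2.21 on the log2 scale (SE 0.30, adjusted p = 4.99e-05).

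Set against all genes tested, the counts were as follows. From E3.5 to E4.5, 0 of the 10 genes were called higher (5.88% of all genes) and 2 lower (11.9%), *Vim* and *Zeb1*. From E4.5 to E5.5, 1 was called higher (14.9% of all genes) and 1 lower (9.47%). From E5.5 to E6.5, 2 were called higher, against 0.715% of all genes, and 0 lower, against 0.480%. From E6.5 to E7.5, 5 were called higher, against 10.6%, and 0 lower, against 1.94%, *Snai2* being 1 of the 5. The median log2 fold change of the 10 genes was 1.55 in the last step and 0.31 over all genes.

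That shift of all genes at E7.5 bears on the direction of small changes. With median-of-ratios factors in place of plain TPM, which brought the median over all genes to 0.01, *Epcam* (-1.15) and *Snai1* (-1.03) were called lower at E7.5, *Cdh1* was at -0.71, *Esrp1* at -0.95 and *Cdh2* at 0.57 on the log2 scale. The 5 genes called higher stayed so, from 1.90 for *Twist1* to 3.21 for *Zeb2*. Over all genes, calls at E7.5 changed from 1265 higher and 231 lower to 736 higher and 382 lower.

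Markers of nascent mesoderm moved with the same stages. The sum of 9 such markers was 18.5 to 19.9 TPM at E5.5, 127 to 173.5 at E6.5 and 262 to 265 at E7.5, with 4, 8 and 7 markers at 1 TPM or more in at least 1 library. *Mesp1* and *Mixl1*, of cells leaving the streak, had medians of 49.6 and 54.1 TPM at E6.5 and of 14.4 and 5.34 TPM at E7.5. *Hand1*, *Foxf1* and *Tbx6*, of later mesoderm, had medians of 83.8, 33.1 and 25.8 TPM at E7.5. The part of mesoderm cells in the E7.5 levels of *Vim*, *Snai2*, *Zeb1*, *Zeb2* and *Twist1* was not tested. The sum of 7 fibroblast and stroma markers was 5.69 to 8.03 TPM at E6.5 and 29.5 to 33.6 at E7.5.

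The ratio of *Cdh2* to *Cdh1* differed by stage. For each *Cdh2* transcript the libraries held 641 to 938 *Cdh1* transcripts at E3.5, 287 to 941 at E4.5, 21.4 to 26.5 at E5.5, 11.6 to 12.3 at E6.5 and 4.74 to 5.00 at E7.5, as ratios of TPM. From E5.5 on the stages did not overlap. With 1 added to each TPM, the mean log2 ratio of *Cdh2* to *Cdh1* was -7.84 ± 0.13 at E3.5 and -2.25 ± 0.04 at E7.5 (SD, n = 3 each). The added 1 makes this log2 ratio less extreme than the plain TPM ratio where *Cdh2* is low.

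Of 38 other genes of adhesion, EMT and the streak listed for comparison, 36 were tested in the embryo. At E7.5, 13 of the 36 rose (36.1%, against 10.6% of all genes) and 4 fell (11.1%, against 1.94%), and their median log2 fold change was 0.38, near the 0.31 of all genes. *Foxc2*, a mesenchymal transcription factor, rose from 0.267 ± 0.152 to 24.0 ± 2.42 TPM, and *Acta2*, smooth muscle actin, from 0.135 ± 0.234 to 20.3 ± 0.767 TPM (SD, n = 3; log2 fold changes 4.30 and 4.25). The streak gene *Eomes* fell from 160 ± 13.4 to 4.10 ± 0.863 TPM, a log2 fold change of -4.98 (SE 0.11, adjusted p = 1.20e-12). At E6.5, 6 rose (16.7%, against 0.715% of all genes) and 1 fell (2.78%, against 0.480%). Those that rose included *Mesp1*, a factor of nascent mesoderm, from 1.02 ± 0.095 to 57.3 ± 13.9 TPM, and *Cdh11*, a mesenchymal cadherin, from 0.403 ± 0.218 to 5.73 ± 0.308 TPM.

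At E5.5, 8 of the 36 rose (22.2%, against 14.9% of all genes) and 7 fell (19.4%, against 9.47%). *Fgf8*, which is needed for cells to leave the streak, rose from 4.34 ± 1.53 to 108 ± 6.41 TPM, and *Mmp14*, a matrix protease at the cell surface, from 2.02 ± 1.30 to 21.5 ± 2.01 TPM. At E4.5, 3 rose (8.33%) and 6 fell (16.7%), shares near the 5.88% and 11.9% of all genes. *Cdh3*, P-cadherin, rose from 6.95 ± 0.511 to 34.7 ± 3.06 TPM, and *Esrp2*, the paralogue of *Esrp1*, fell from 43.5 ± 3.13 to 11.98 ± 1.16 TPM. *Esrp1* over the same step was at 24.2, 23.0 and 20.9 and then at 31.5, 42.0 and 38.1 TPM, without overlap and below the fold of a call (log2 fold change 0.68, SE 0.11, adjusted p = 0.000186). Of the 4 catenins, which link cadherins to actin, 1 fell at E4.5 and 0 were called in each later step, with median log2 fold changes from -0.21 to 0.27 over the 4 steps against -0.10 to 0.31 over all genes.

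Across the 15 embryo libraries, levels on the log2(TPM + 1) scale were most alike between *Cdh1* and *Epcam* (Pearson's r = 0.956) and between *Zeb2* and *Twist1* (r = 0.938). The most opposed pair was *Cdh1* and *Zeb2* (r = -0.944). *Esrp1* ran most nearly opposite to *Zeb1* (r = -0.890). *Cdh2* and *Zeb1* showed almost no relation (r = 0.0271). These points share 5 stages, so every r is a description of a course over stages.

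Among all tested genes outside the set, those most like *Cdh1* were *Akap12* (r = 0.987), *Slc9b1* (0.978), *Tuba3a* (0.973), *Mkrn1* (0.972) and *Dppa4* (0.969). All 5 were lower at E7.5 than at E3.5. *Akap12*, a scaffold of kinase signalling, also had the highest r to *Cdh1* in the 12 culture libraries among these genes, 0.878, and had means of 238 TPM at E3.5 and 80.3 TPM at E7.5. *Dppa4*, a marker of pluripotency, went from a mean of 78.1 to 0.162 TPM, a far steeper course at nearly the same r.

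Those most like *Cdh2* were *Mthfd1l* (r = 0.997), *Rbp4* (0.996), *Fgb* (0.995), *Zfp521* (0.995) and *Mdk* (0.993). *Rbp4* and *Fgb* encode secreted proteins that visceral endoderm is known to make. They were listed at 0 at E3.5 and E4.5 and had means of 253 and 8.42 TPM at E7.5. In culture *Rbp4* had means of 1.53 TPM in EpiLCs, 2.63 and 3.91 in the ESC-derived and embryo-derived 3D cultures and 7.76 in 2D EpiSCs. Those of *Cdh2*, at 4.30, 10.8, 26.7 and 38.7 TPM, had the same order (r = 0.876 over the 12 libraries, which share 4 cultures). *Fgb* was at most 0.00379 TPM as a mean in any culture.

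In culture, the mesenchymal genes and the factors differed while *Cdh1*, *Epcam* and *Esrp1* passed the call in none of 6 comparisons. *Cdh2* was highest in 2D EpiSCs, then in the embryo-derived and the ESC-derived 3D culture, and last in EpiLCs, without overlap between neighbours. These comparisons share their groups and are not independent of each other.

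**Figure D3:**
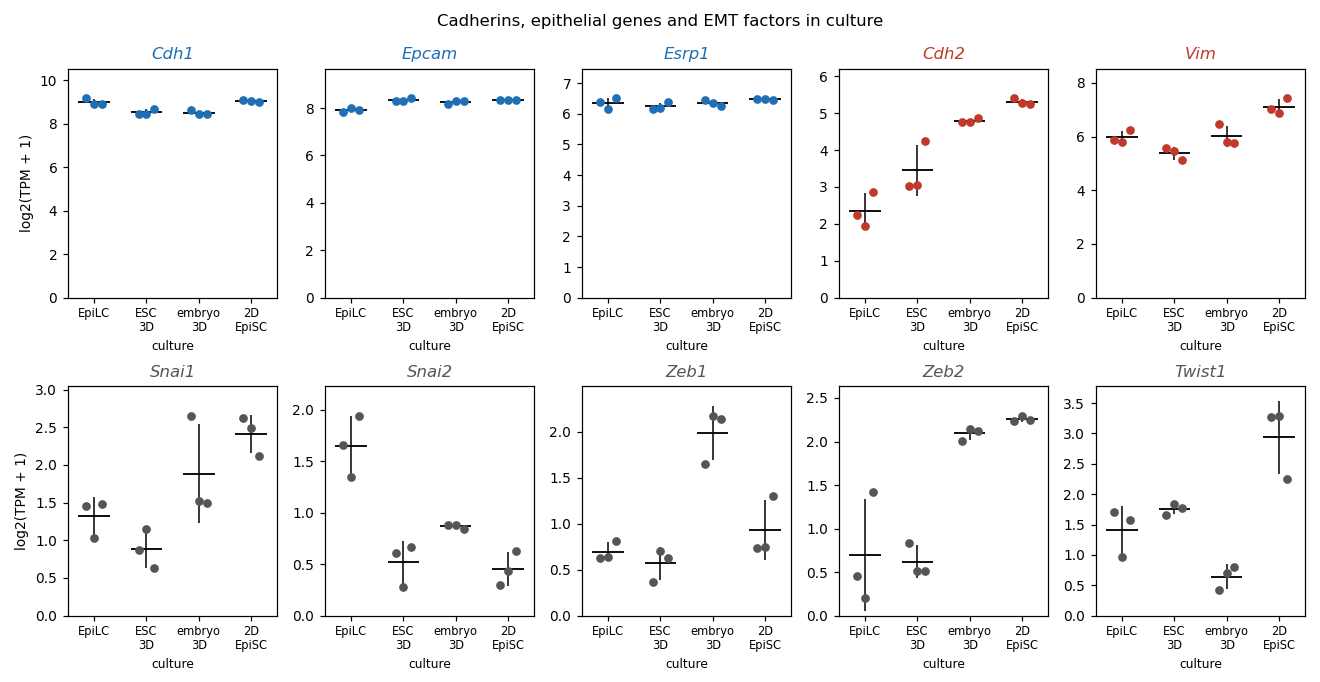
Level of each of the 10 genes, as log2(TPM + 1), in EpiLCs, the ESC-derived (ESC 3D) and embryo-derived (embryo 3D) 3D cultures and 2D EpiSCs; points are the 3 libraries of a culture, horizontal lines the mean and vertical lines ± 1 SD. *Cdh1*, *Epcam* and *Esrp1* lie within narrow bands, whereas *Cdh2* spans 2.88 to 41.2 TPM.

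Some replicates stood close together. The median absolute log2 difference over genes was 0.0610 between ESC-derived libraries 1 and 2, 0.0569 between embryo-derived libraries 2 and 3, and 0.0649 between 2D EpiSC libraries 1 and 2, against 0.131 to 0.271 for the other culture pairs. Without counts it cannot be tested whether these differ beyond sampling noise, so results that a fit with each such pair averaged does not call are named. The third ESC-derived library stood apart. Its 4 definitive endoderm markers summed to 2008 TPM against 902 and 906. Its 9 nascent mesoderm markers summed to 46.6 TPM, of which *Lefty2* held 39.9, against 26.4 and 26.0.

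2D EpiSCs were compared with EpiLCs to set primed against formative cells. *Cdh2* was at 41.2, 38.1 and 36.9 TPM in 2D EpiSCs and at 3.70, 2.88 and 6.32 TPM in EpiLCs. The groups stood far apart, with a log2 fold change of 2.96 (SE 0.30, adjusted p = 6.91e-06). *Vim* was at 129, 118 and 170 TPM against 57.8, 54.7 and 75.1, a log2 fold change of 1.14 (SE 0.21, adjusted p = 0.000775). *Zeb2* was at 3.69, 3.89 and 3.73 TPM against 0.374, 0.154 and 1.67, so 1 EpiLC library lay well above the other two (log2 fold change 1.56, SE 0.24, adjusted p = 0.000179).

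*Twist1* was at 8.68, 8.72 and 3.75 TPM in 2D EpiSCs against 2.25, 0.944 and 1.97 TPM in EpiLCs (log2 fold change 1.53, SE 0.26, adjusted p = 0.000438). *Snai1* was at 5.15, 4.62 and 3.36 TPM against 1.73, 1.05 and 1.80 (log2 fold change 1.09, SE 0.28, adjusted p = 0.00568). Neither gene overlapped between the cultures. *Snai1* was not called without 2D library 1 (0.98) or EpiLC library 2 (0.94), nor *Vim* without 2D library 3 (0.98). In all, 5 of 9 tested genes were called higher, against 15.2% of all genes, and 0 lower, against 5.14%. In culture *Snai1* was above 2 TPM in 4 libraries and *Zeb2* in 6, all of them 2D or embryo-derived. Both thus passed the filter through those cultures and no EpiLC library. In a fit without the filter their adjusted p-values here were 0.0128 and 0.0007. Markers of other lineages moved with the 5 genes. All 4 definitive endoderm markers were called higher in 2D EpiSCs (median log2 fold change 4.32), among them *Cer1*, at 309 to 370 TPM against at most 0.0322 TPM, and *Foxa2*, at medians of 30.4 and 0.602 TPM. The endoderm markers in the list of 10 summed to 52.1 to 68.6 against 7.29 to 11.3 TPM, with 3 of 4 tested called higher (median 3.45). *Sox17* is in both endoderm lists. *Afp*, *Ttr*, *Amn* and *Cubn*, too low to be tested, reached at most 0.562 TPM in 2D EpiSCs. Of the trophectoderm markers 4 of 4 tested were called higher (median 1.597), but *Cdx2* and *Elf5* were too low to be tested. In 2D EpiSCs *Cdx2* reached at most 0.0340 TPM and *Elf5* at most 0.311 TPM. The part of other lineages in the levels of the 5 genes was not tested. With median-of-ratios factors, which moved the median over all genes from 0.18 to -0.03, *Vim* (0.91) and *Snai1* (0.93) were not called, and all-gene calls went from 1756 higher and 593 lower to 1336 and 786.

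*Cdh1* in the same comparison was at 546, 520 and 504 TPM in 2D EpiSCs and at 568, 482 and 479 in EpiLCs, which overlapped, and the log2 fold change of 0.04 became -0.18 with median-of-ratios factors. *Epcam* was at 324, 325 and 328 TPM against 229, 253 and 239, apart but below the fold of a call (log2 fold change 0.44, SE 0.08, adjusted p = 0.000797). Among the factors, *Zeb1* was at 0.663, 0.673 and 1.47 TPM in 2D EpiSCs and at 0.546, 0.558 and 0.761 in EpiLCs, which overlapped (log2 fold change 0.23, SE 0.18, adjusted p = 0.287). *Snai2*, which failed the filter, went the other way: it was at 0.228, 0.346 and 0.541 TPM in 2D EpiSCs and at 2.16, 1.54 and 2.83 in EpiLCs, above all 9 other culture libraries. In a fit without the filter its log2 fold change was -1.20 (SE 0.15, adjusted p = 0.000156).

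Of the 29 other adhesion, EMT and streak genes tested in culture, 14 exceeded their EpiLC level in 2D EpiSCs (48.3%, against 15.2% of all genes) and 2 lay below it (6.90%, against 5.14%), with a median log2 fold change of 0.98 against 0.18 over all genes. *Acta2* was at 50.3 ± 20.9 against 1.49 ± 0.199 TPM, *Tagln*, an actin-binding protein of contractile cells, at 80.8 ± 20.4 against 3.90 ± 1.44 TPM, and *T*, which encodes Brachyury, at 32.1 ± 7.12 against 1.10 ± 0.478 TPM (SD, n = 3). *Fgf4* was lower, at 8.05 ± 1.598 against 97.5 ± 6.88 TPM.

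ESC-derived 3D EpiSCs were compared with 2D EpiSCs, from which they differed in both dimension and medium. *Cdh2* was at 7.15, 7.36 and 18.0 TPM in the 3D culture, all below the 2D libraries (log2 fold change -1.86, SE 0.30, adjusted p = 0.000615). *Vim* was at 46.2, 43.2 and 33.6 TPM, also below every 2D library (-1.73, SE 0.21, adjusted p = 0.000118). *Zeb2* was at 0.784, 0.421 and 0.429 TPM (-1.64, SE 0.24, adjusted p = 0.000366), and *Snai1* at 0.830, 1.21 and 0.550 TPM (-1.53, SE 0.28, adjusted p = 0.00145).

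*Twist1* was at 2.16, 2.57 and 2.41 TPM in ESC-derived 3D EpiSCs (log2 fold change -1.18, SE 0.26, adjusted p = 0.00452), and was not called with near-identical replicates averaged (-1.004, adjusted p = 0.0804). *Zeb1*, at 0.289, 0.630 and 0.549 TPM, lay below the 2D libraries by a narrow gap and was not called (-0.36, SE 0.18, adjusted p = 0.121). In total 0 of 9 genes were called higher, against 0.633% of all genes, and 5 lower, against 9.25%. Of the 5, *Snai1* and *Zeb2* were above 2 TPM in no ESC-derived library and passed the filter only through 2D and embryo-derived libraries. In a fit without the filter their adjusted p-values were 0.00444 and 0.0014. *Cdh1* was at 347, 351 and 410 TPM, under the lowest 2D library (-0.51, SE 0.11, adjusted p = 0.00300), which is below the fold of a call. *Epcam*, at 311, 314 and 338 TPM, overlapped the 2D libraries (-0.02, SE 0.08), and its sign turned with median-of-ratios factors (0.20).

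Embryo-derived 3D EpiSCs gave another set of differences from the same 2D EpiSCs. By the labels these cultures differed in cell origin as well as in dimension and medium. *Twist1* was at 0.335, 0.628 and 0.745 TPM, the lowest of the 4 cultures (log2 fold change -2.29, SE 0.26, adjusted p = 6.70e-05). *Vim* was at 87.6, 54.7 and 52.8 TPM, below the 2D libraries (-1.10, SE 0.21, adjusted p = 0.00234), though not called without embryo-derived library 3 (-0.98) or 2D library 3 (-0.95). *Zeb1* was at 2.13, 3.498 and 3.42 TPM, above the 2D libraries at 0.663, 0.673 and 1.47 TPM (1.06, SE 0.18, adjusted p = 0.00101). It passed the filter only through the embryo-derived libraries, and in a fit without the filter its adjusted p was 0.00278. Its call was lost without either of embryo-derived libraries 2 and 3 or of 2D libraries 1 and 2 (0.96 to 0.98), and with near-identical replicates averaged (0.88).

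*Cdh2* in embryo-derived 3D EpiSCs was at 25.9, 26.2 and 28.0 TPM, apart from the 2D libraries and not called (log2 fold change -0.52, SE 0.30, adjusted p = 0.204). *Zeb2* was at 3.03, 3.42 and 3.36 TPM (-0.16, SE 0.24) and *Snai1* at 5.26, 1.87 and 1.81 TPM (-0.53, SE 0.28), of which *Snai1* overlapped the 2D libraries. Thus 1 of 9 genes was called higher, against 1.07% of all genes, and 2 lower, against 7.75%. The gene called higher was *Zeb1*, which passed the filter only through the embryo-derived libraries. *Cdh1* was at 390, 341 and 348 TPM (-0.54, SE 0.11, adjusted p = 0.00236).

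Mesenchymal products beyond *Vim* were lower in both 3D cultures than in 2D EpiSCs. In ESC-derived 3D EpiSCs 6 of 7 were called lower, against 9.25% of all genes, and in embryo-derived ones 5 of 7, against 7.75%, with median log2 fold changes of -1.62 and -2.37 against -0.21 and -0.08 over all genes. *Fn1*, fibronectin, was at 85.5 ± 21.0 TPM in 2D EpiSCs, at 21.5 ± 6.94 in ESC-derived and at 14.4 ± 0.913 in embryo-derived 3D EpiSCs. *Acta2* was at 2.12 ± 1.34 and 0.938 ± 0.437 TPM in the 3D cultures. The epithelial regulator *Grhl3* was lower too, at 12.8 ± 1.51 TPM in 2D and 2.65 ± 0.516 and 2.58 ± 0.932 TPM in 3D. Markers of other cell types also differed between these cultures. Those of primitive and visceral endoderm summed to 52.1 to 68.6 TPM in 2D EpiSCs, 1.91 to 15.2 in ESC-derived and 12.7 to 25.0 in embryo-derived 3D EpiSCs, and 4 of 4 and 2 of 4 tested markers were called lower (median log2 fold changes -3.17 and -1.55). Of 4 definitive endoderm markers 2 were called lower in each 3D culture, and 1 was called higher in the embryo-derived one. Of 4 tested trophectoderm markers the ESC-derived cells had 3 called lower and the embryo-derived cells 2, while *Cdx2* and *Elf5* were too low to be tested. Nascent mesoderm markers summed to 59.9 to 88.9 TPM in 2D EpiSCs, 26.0 to 46.6 in ESC-derived and 38.5 to 42.0 in embryo-derived 3D EpiSCs. These sums rest on few genes: in each of the 3 cultures only 2 of the 9 markers reached 1 TPM in a library. Only 2 were tested, with 1 called lower and 0 higher in ESC-derived cells. In embryo-derived cells 1 was called lower and 1 higher (median log2 fold changes -0.89 and -0.06). Fibroblast and stroma markers summed to 23.6 to 25.3 TPM in 2D EpiSCs, 14.4 to 18.9 in ESC-derived and 8.02 to 9.19 in embryo-derived 3D EpiSCs. The part of these cell types in the lower *Cdh2*, *Vim* and factors of 3D cultures was not tested.

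Each 3D culture was also set against EpiLCs. In ESC-derived 3D EpiSCs 1 of 9 genes was called higher, *Cdh2*, against 5.33% of all genes, and 0 lower, against 7.11%. This call, at 1.09 on the log2 scale (SE 0.30, adjusted p = 0.0106), depended on single libraries: without the third ESC-derived library the log2 fold change was 0.69 and without the second EpiLC library 0.89. Of the 9 genes, *Snai1*, *Zeb1* and *Zeb2* were below 2 TPM in every library of both cultures (at most 1.80, 0.76 and 1.67 TPM). They passed the filter through other cultures alone and had little room for a call here. In embryo-derived 3D EpiSCs 3 of 9 genes were called higher, against 10.5% of all genes, and 0 lower, against 8.28%. These were *Cdh2* (2.44, SE 0.30, adjusted p = 3.32e-05), *Zeb2* (1.40, SE 0.24, adjusted p = 0.000436) and *Zeb1* (1.29, SE 0.18, adjusted p = 9.66e-05), all without overlap, and *Zeb1* passed the filter only through the embryo-derived libraries. *Zeb2* was above 2 TPM only in embryo-derived and 2D libraries, and in a fit without the filter its adjusted p was 0.00142. In the list of 29 other genes, ESC-derived 3D EpiSCs exceeded EpiLCs in 5 (17.2%, against 5.33% of all genes) and lay below them in 4 (13.8%, against 7.11%), and embryo-derived ones did so in 6 (20.7%, against 10.5%) and 5 (17.2%, against 8.28%). Of 4 definitive endoderm markers 3 were called higher than in EpiLCs in each 3D culture. The streak genes *T*, *Eomes* and *Fgf8* were among the higher in both, *Fgf8* at 83.9 ± 31.6 and 188 ± 33.7 against 16.7 ± 4.29 TPM.

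The 3D cultures were then compared directly, which is also the test of whether their differences from 2D EpiSCs differ. *Zeb1* (log2 fold change -1.42, SE 0.18, adjusted p = 0.000379) and *Zeb2* (-1.47, SE 0.24, adjusted p = 0.00201) were lower in the ESC-derived cells, and both were still called with near-identical replicates averaged. In culture *Zeb1* was above 2 TPM in the 3 embryo-derived libraries and in no other, so it passed the filter only through the culture in which it was high, and in a fit without the filter its adjusted p in this comparison was 0.00167. *Zeb2* and *Snai1* were above 2 TPM only in embryo-derived and 2D libraries. Without the filter *Zeb2* was called (adjusted p = 0.0066) and *Snai1* was not (adjusted p = 0.0537). *Cdh2* was lower (-1.35, SE 0.30, adjusted p = 0.0103) and *Twist1* higher (1.11, SE 0.26, adjusted p = 0.0144) with the libraries as deposited, but neither was called with near-identical replicates averaged (adjusted p = 0.171 and 0.117). *Twist1* was also not called without the second ESC-derived library (adjusted p = 0.0543). *Snai1* lay at the limit, at -1.002 (SE 0.28, adjusted p = 0.0288), and was -0.62 without the first embryo-derived library. It was not called either without the first (adjusted p = 0.0812) or the third (-0.88) ESC-derived library.

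Hence 1 of 9 genes was called higher in ESC-derived 3D EpiSCs, against 1.98% of all genes, and 4 lower, against 1.98%. *Cdh1* (0.04, SE 0.11), *Epcam* (0.08, SE 0.08) and *Esrp1* (-0.11, SE 0.11) overlapped between the 3D cultures. *Vim* did not overlap and was not called (-0.63, SE 0.21, adjusted p = 0.0572). With median-of-ratios factors all-gene calls went from 228 higher and 229 lower to 270 and 149, and *Snai1* was not called (-0.93). Markers of primitive and visceral endoderm summed to 1.91 to 15.2 TPM in ESC-derived and 12.7 to 25.0 in embryo-derived cells. Those of definitive endoderm summed to 902 to 2008 and 373 to 478 TPM, but single markers did not all follow that sum. Of 4, 1 was called higher and 2 lower in ESC-derived cells, with a median log2 fold change of -1.53. The part of both cell types in these differences was not tested. Of the 29 other genes 3 were higher (10.3%) and 2 lower (6.90%), *Fgf4* at 10.2 ± 0.534 against 4.28 ± 0.458 TPM being higher and *Eomes* at 35.6 ± 9.46 against 77.9 ± 33.2 TPM lower in ESC-derived cells.

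**Figure D4:**
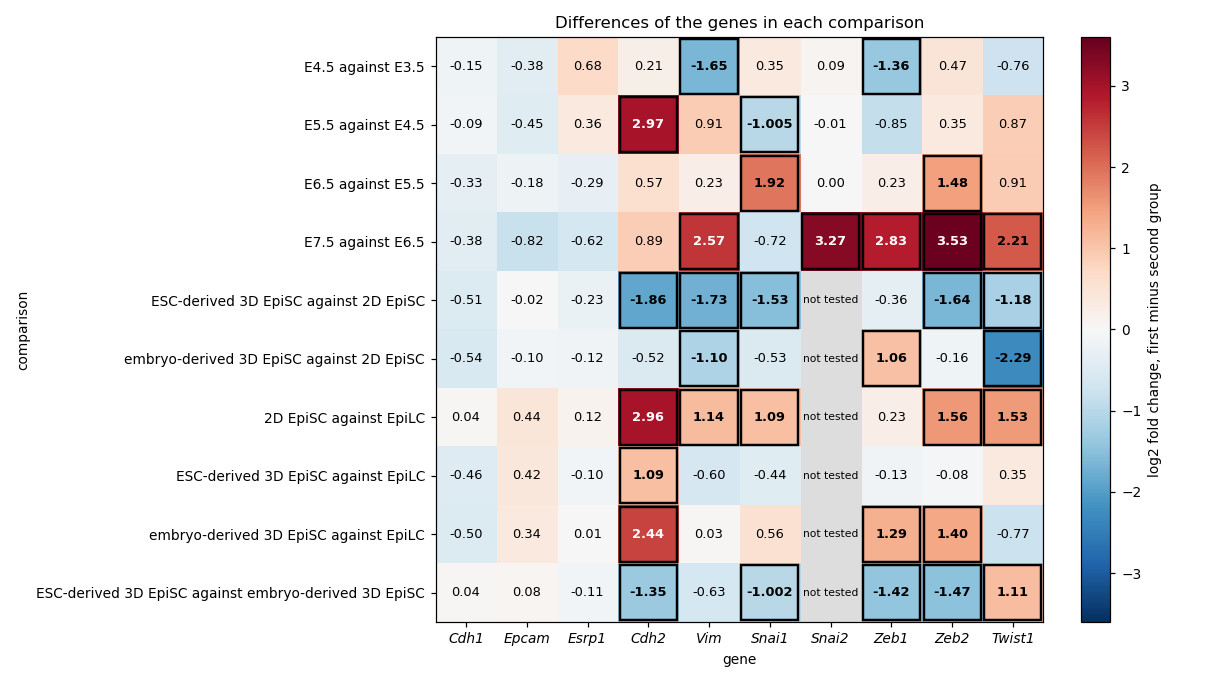
Log2 fold change, on the log2(TPM + 1) scale, of each of the 10 genes (columns) in each of 10 comparisons (rows), first group minus second; red is higher and blue lower in the first group, and boxed bold values passed the call. *Cdh1*, *Epcam* and *Esrp1* have no boxed value, and *Snai2* was not tested in culture.

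Side by side with the embryo, and without a test across the differing library types, the cadherin ratios of the cultures fell within the range of the stages. With 1 added to each TPM, the mean log2 ratio of *Cdh2* to *Cdh1* was -6.64 ± 0.52 in EpiLCs and -3.72 ± 0.02 in 2D EpiSCs. It was -5.08 ± 0.56 in the 3D culture from ESCs and -3.70 ± 0.14 in that from embryos (SD, n = 3 each). It was -7.47 ± 0.32 at E4.5, -4.42 ± 0.15 at E5.5 and -3.52 ± 0.05 at E6.5. The ESC-derived libraries 1 and 2 were at -5.41 and -5.40, and library 3 at -4.44. The factors stayed lower in culture than at E7.5: *Zeb2* was at most 3.89 TPM in culture against at least 53.2 TPM at E7.5, *Zeb1* at most 3.498 against 12.4, *Twist1* at most 8.72 against 23.4, and *Snai2* at most 2.83 against 8.90 TPM. *Snai1* was at most 5.26 TPM in culture and at least 5.65 TPM in every embryo library. *Cdh1* was at least 341 TPM in culture and at most 331 TPM in the embryo, but autosomal protein-coding genes held 80.1 to 85.1% of TPM in culture libraries and 55.3 to 66.1% in embryo libraries. Rescaled to those genes, *Cdh1* was at 416 to 709 in culture and at 246 to 596 in the embryo, which overlapped, whereas *Snai1* did not overlap (0.669 to 6.49 and 9.38 to 66.3).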

How the data were processed

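Per the study's methods, cutadapt 2.4 served for trimming, STAR for alignment against mm10 and StringTie for quantification. The authors deposited TPM, whose total is equal across libraries, so depth cannot be recovered. Lines of 1 identifier were summed (12 identifiers) and empty cells (56 lines) counted as 0. Autosomal protein-coding genes above 2 TPM in at least 3 libraries of a set were tested on log2(TPM + 1) with limma 3.58.1 in R 4.3.3, with the 5 stages in 1 fit and the 4 cultures in another. The study's count-based test could not be run on TPM. Embryo RNA was fragmented differently before E5.5 and from E5.5 on, so that step and fragmentation cannot be told apart. Replicate numbers did not pair samples (mean correlation of deviations -0.017 *in vivo*, -0.030 *in vitro*). The 10 genes, the gene lists and the tests were chosen with earlier results of these data known. Named genes were all 10, the called genes of the other lists with the largest changes (up to 6 per comparison), and the 5 most like each cadherin. Alternatives were another pseudocount, no filter, 2 rescalings, only the compared groups, a replicate block, an intensity trend, averaged near-identical replicates and each library left out. Python 3.11.15 was used for summaries.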

Additional observations from a re-analysis of the deposited data

Results flagged for a closer look

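ESC-derived and embryo-derived 3D EpiSCs differed from 2D EpiSCs to different extents in 5 genes, tested by the direct comparison of the 3D cultures, in which the shared 2D libraries drop out. The difference between the changes, ESC-derived minus embryo-derived on the log2 scale, was -1.35 for *Cdh2* (-1.86 against -0.52), -1.42 for *Zeb1* (-0.36 against 1.06), -1.47 for *Zeb2* (-1.64 against -0.16), -1.002 for *Snai1* (-1.53 against -0.53) and 1.11 for *Twist1* (-1.18 against -2.29). *Zeb1* and *Zeb2* stayed called in each alternative run, whereas *Cdh2*, *Snai1* and *Twist1* were not called with near-identical replicates averaged. Cell origin and genetic background cannot be told apart in this comparison.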

How the results depend on the processing

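Of 33 called differences, 22 stayed called in every alternative, among them all 5 rises at E7.5 and the rise of *Cdh2* at E5.5. Counts of genes called moved by 1.5 times or more in these cases. At E5.5 the count was 2 and became 4 with a pseudocount of 0.1 and with TPM over autosomal protein-coding genes, *Zeb1* and *Twist1* being added, and 1 to 3 with a library left out. At E6.5 it was 2 and became 1 with only the compared groups. At E4.5 it was 2, and 3 with a pseudocount of 0.1 and 2 to 3 with a library left out. For embryo-derived 3D against 2D EpiSCs it was 3, and 2 with near-identical replicates averaged and 1 to 3 with a library left out. For 2D EpiSCs against EpiLCs it was 5, and 3 with median-of-ratios factors. For ESC-derived 3D EpiSCs against EpiLCs it was 1, and 0 with only the compared groups and 0 to 1 with a library left out. For ESC-derived against embryo-derived 3D EpiSCs it was 5, and 2 with near-identical replicates averaged. Smaller moves were from 5 to 7 at E7.5 with median-of-ratios factors, from 5 to 4 for ESC-derived 3D against 2D EpiSCs with near-identical replicates averaged, from 3 to 4 for embryo-derived 3D EpiSCs against EpiLCs with a pseudocount of 0.1, and from 5 to 4 for 2D EpiSCs against EpiLCs with a library left out. Between the 3D cultures the count was also 4 with median-of-ratios factors, without the filter, with only the compared groups and with some libraries left out. The cause of these moves was not tested.

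Signs turned only for differences near 0 that were not called. With median-of-ratios factors these were *Snai2* at E6.5 (0.01), *Epcam* in ESC-derived 3D against 2D EpiSCs (0.20), *Cdh1* (-0.18) and *Esrp1* (-0.10) in 2D EpiSCs against EpiLCs, *Esrp1* (-0.12) and *Vim* (-0.10) in embryo-derived 3D EpiSCs against EpiLCs, and *Esrp1* between the 3D cultures (0.02). With a pseudocount of 0.1 they were *Snai2* at E5.5 (0.06) and *Zeb2* in ESC-derived 3D EpiSCs against EpiLCs (0.06). With TPM over autosomal protein-coding genes it was *Esrp1* in embryo-derived 3D EpiSCs against EpiLCs (-0.00048). With a library left out, *Snai2* ranged from -0.12 to 0.08 at E5.5 and from -0.08 to 0.10 at E6.5, *Epcam* from -0.06 to 0.0028 in ESC-derived 3D against 2D EpiSCs, and *Cdh1* from -0.00052 to 0.12 in 2D EpiSCs against EpiLCs. *Zeb2* ranged from -0.32 to 0.29 in ESC-derived 3D EpiSCs against EpiLCs, *Esrp1* from -0.08 to 0.08 and *Vim* from -0.20 to 0.17 in embryo-derived 3D EpiSCs against EpiLCs, and *Cdh1* from -0.04 to 0.10 between the 3D cultures.

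With the replicate block, the counts of genes called were unchanged in all 10 comparisons (5 at E7.5, for example), and samples of the same number did not deviate together. The file gives no depth, so the precision of low values such as those of *Snai2* and *Zeb2* before E6.5 is unknown.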
